A study of Mus musculus with 28 samples.

Results

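Female (XX) and male (XY) fetal germ cells of the mouse were compared by RNA-seq at E13.5, the embryonic stage when ovarian germ cells are known to be entering meiosis and testicular germ cells to be leaving the mitotic cycle. The 8 control RNA libraries were chosen by genotype alone from 28 samples in the series, 16 of them RNA libraries. The XX group held 4 libraries, 2 of Setdb1 delta/+ germ cells (Het1) and 2 of Setdb1 flox/- germ cells (Het2), and the XY group held 4 libraries of the same 2 genotypes, again 2 each. Setdb1 encodes an H3K9 methyltransferase, so all 8 control libraries carry an altered allele of it, deleted in Het1 and floxed opposite a null allele in Het2. Libraries of KO germ cells were left out of the comparison. Germ cells were sorted from dissociated gonads for the surface antigen SSEA1. What drives the deletion, or whether a library is 1 embryo or a pool, the labels do not say, so p-values measure only the spread between these libraries. Set beside the comparison were 1 wild-type (Setdb1 flox/+) RNA library per sex, 4 chromatin immunoprecipitation (ChIP) libraries of Setdb1 flox/- germ cells, and 1 RNA library of SSEA1-negative gonadal cells from C57BL/6 males.

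In the fetal ovary, retinoic acid and bone morphogenetic protein (BMP) signals act on germ cells to switch on Stra8 and Meiosin, whose products act together at the promoters of meiotic genes. The cohesin axis is then built along each chromosome, programmed double-strand breaks are made and homologues pair through the synaptonemal complex. In the fetal testis, retinoic acid is degraded by Cyp26b1, germ cells pass through a phase of Nodal signalling with its coreceptor Cripto (Tdgf1) and its inhibitors Lefty1 and Lefty2, and then arrest in G1 under Nanos2 and the CDK inhibitors. Meiosin is not analysed here.

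Values are RPKM, read numbers scaled to gene length and library size, and values of 4 libraries are given in the order Het1 replicate 1, Het1 replicate 2, Het2 replicate 1, Het2 replicate 2. The germ cell markers Ddx4 and Dazl, both RNA-binding proteins of the germ line, were high in all 8 libraries. Ddx4 had 215, 319, 303 and 271 RPKM in XX germ cells and 317, 298, 283 and 302 RPKM in XY germ cells, and the ranges overlapped. The full list of 8 germ cell markers differed between the sexes. In the limma comparison below, 1 was called higher and 3 lower in XX, with a median log2 difference of -0.47. The lower genes numbered 1 to 3 in fits that left out 1 library. Summed over the list, XX libraries had 1337 to 1697 RPKM and XY libraries 1796 to 2242 RPKM. The sex labels were checked with Y-linked genes: Eif2s3y had at most 0.1 RPKM in XX libraries and at least 43.4 RPKM in XY libraries. Setdb1 itself averaged 45.7 ± 9.05 RPKM in XX and 46.1 ± 6.25 RPKM in XY germ cells (SD, n = 4 each; limma adjusted p = 0.937). Read depth is unknown, because values are rounded to 0.01 RPKM. Genes at 1 RPKM or more numbered 12049 to 12344 in XX libraries and 11636 to 11849 in XY libraries.

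Both sexes held a library that stood apart. Sex separated along principal component 1 (56.1% of variance), whereas component 2 (18.4%) set XX Het2 replicate 1 and XY Het1 replicate 1 apart from the other libraries. XX Het2 replicate 1 had the highest value of its sex for 15 of 18 meiotic entry genes and for none of 22 pluripotency genes. XY Het1 replicate 1 had the highest value of its sex for 17 of 18 genes of male fate and the piRNA pathway. It was also the highest for 9 of 18 meiotic entry genes and 9 of 16 axis genes. Over the 12987 genes tested below, XX Het2 replicate 1 was the highest of its sex for 3867 and XY Het1 replicate 1 for 4640. Values without both libraries are given beside the results that rest on them.

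**Figure D1:**
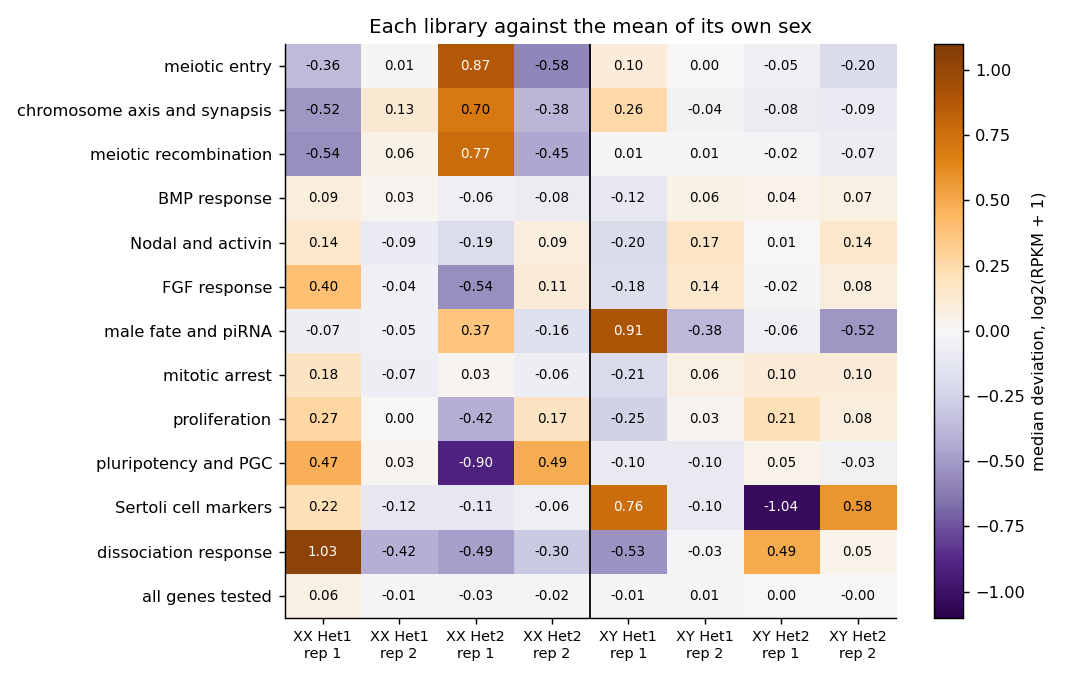
Median deviation of each library from the mean of its own sex, in log2(RPKM + 1) units, for members of 12 gene lists and for all 12987 genes tested; XX libraries stand left of XY libraries. XX Het2 replicate 1 lies at 0.87 for meiotic entry genes and at -0.90 for pluripotency genes, and XY Het1 replicate 1 at 0.91 for male fate and piRNA genes, while over all genes the libraries lie between -0.03 and 0.06.

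Of 12987 genes tested with limma on log2(RPKM + 1), 1998 were higher in XX germ cells and 1657 were lower, at a Benjamini-Hochberg adjusted p under 0.05. These are 15.4% and 12.8% of the genes tested, the background for the counts below. Of the genes called, 1820 of the 1998 higher and 1490 of the 1657 lower ones had no overlap between the 4 and 4 libraries. A call selects for such separation. Over all 12987 genes tested, called or not, 2271 (17.5%) and 1868 (14.4%) did not overlap in those directions. The difference was 2-fold or more for 735 higher and 477 lower genes and 8-fold or more for 20 higher and 22 lower genes. The total of 3655 calls was 2406 without XX Het1 replicate 2, 2347 without XY Het2 replicate 1 and 3518 without the 2 libraries that stood apart, and no gene called changed sign in any of these fits. No gene passed the test for a sex difference that differs between Het1 and Het2 (limma, 4 group means, 0 of 12987 at adjusted p under 0.05 and 105 at an unadjusted p under 0.05).

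**Figure D2:**
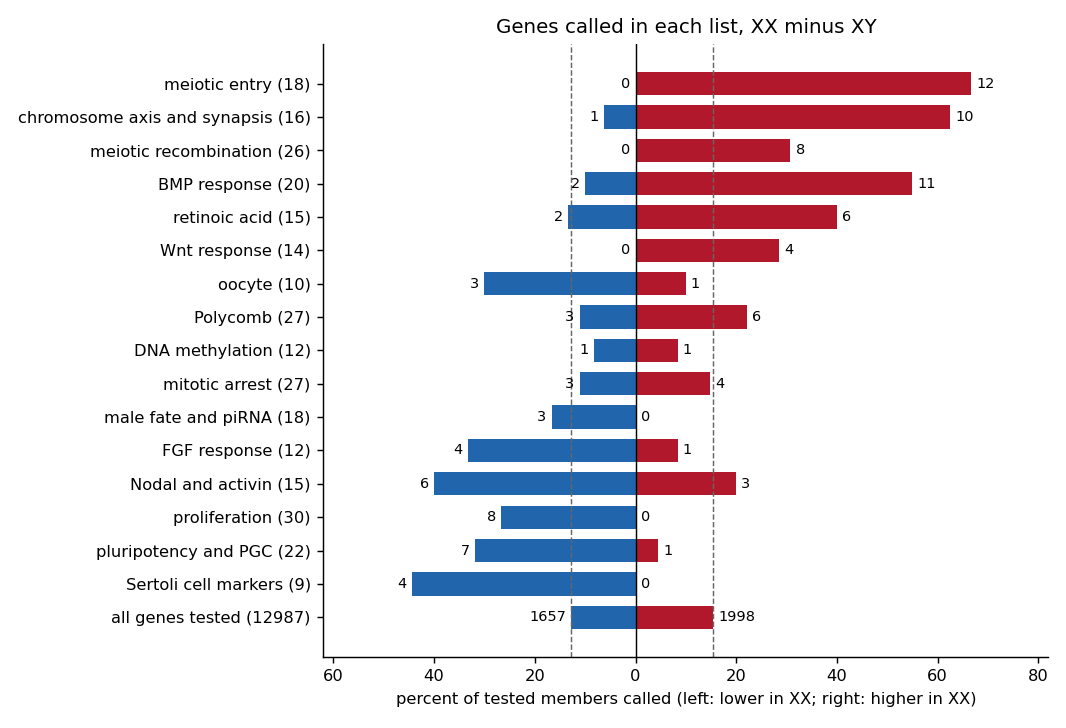
Percent of the tested members of 16 gene lists and of all genes that were called higher in XX (bars to the right) or lower in XX (bars to the left), with the number of genes at each bar and the number tested in parentheses; dashed lines mark the shares over all genes. The meiotic entry, axis and BMP lists reach furthest to the right, with 12, 10 and 11 genes, and the Sertoli cell and Nodal lists furthest to the left, with 4 and 6.

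Most genes of meiotic entry were higher in XX germ cells. Of the 18 tested, 12 were called higher and 0 lower, with a median log2 difference of 1.35 against 0.04 over all genes tested. Stra8, the gatekeeper of meiotic initiation, had 122, 137, 323 and 73.4 RPKM in XX germ cells and 2.30, 0.18, 0.23 and 0 RPKM in XY germ cells. Every XX library was above every XY library, the highest being XX Het2 replicate 1, and the log2 difference was 6.59 ± 0.45 (SE; adjusted p = 7.1e-06). Rec8, the meiosis-specific kleisin of cohesin and a retinoic acid target, is counted in this list and again below with the axis genes. It had 104, 98.7, 158 and 59.3 RPKM in XX and 17.0, 10, 6.93 and 7.73 RPKM in XY germ cells. It was transcribed in all XY libraries, and the difference of 3.21 ± 0.31 left the groups well apart (adjusted p = 8.56e-05). Meioc, whose product works with Ythdc2 to hold germ cells in the meiotic programme and which the deposited table lists as Gm1564, had 39.4, 98.0, 160 and 39.8 RPKM in XX and 3.57, 4.13, 2.89 and 2.58 RPKM in XY germ cells (log2 difference 4.07 ± 0.39, adjusted p = 9.05e-05). M1ap, a meiosis gene, had 53.4, 57.7, 244 and 48.9 RPKM in XX and 6.94, 5.93, 9.73 and 5.06 RPKM in XY germ cells, and the call held (3.35 ± 0.44, adjusted p = 0.000622). Dazl, which licenses germ cells for meiosis, and Ddx4 stood at log2 differences of 0.20 and -0.13 (adjusted p = 0.381 and 0.535).

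The number of meiotic entry genes called moved with single libraries. It was 7 without XX Het1 replicate 2 and 7 without XY Het2 replicate 1, 14 without XX Het2 replicate 2, and 13 without XX Het2 replicate 1 and XY Het1 replicate 1 together. With no filter on low values, which puts 22138 genes in the test, 6 meiotic entry genes, 4 axis genes and 2 recombination genes were called higher. Stra8, Rec8, Meioc and M1ap were called in each of the 8 fits that left out 1 library, with log2 differences of Stra8 between 6.19 and 6.97.

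Most genes of the chromosome axis and synaptonemal complex were also higher in XX germ cells. Of 16 tested, 10 were called higher and 1 lower, with a median of 1.09. The cohesin subunit gene Smc1b had 168, 299, 457 and 216 RPKM in XX and 83.8, 95.7, 86.5 and 95.8 RPKM in XY germ cells. The 4 XY libraries were close to each other and the XX libraries spread widely above them (log2 difference 1.55 ± 0.26, adjusted p = 0.00208). Sycp3, which forms the lateral element, had 56.0, 104, 269 and 47.9 RPKM in XX and 38.7, 20.3, 19.5 and 18.2 RPKM in XY germ cells, so that the gap between the lowest XX and the highest XY library was small (1.97 ± 0.46, adjusted p = 0.0107; 1.70 without both libraries that stood apart, adjusted p = 0.00176). Sycp1, the transverse filament, averaged 56.6 ± 22.1 RPKM in XX and 21.4 ± 9.44 RPKM in XY germ cells (SD, n = 4 each; adjusted p = 0.0104), with 34.8 RPKM in its lowest XX and 34.6 RPKM in its highest XY library. Stag3, another meiotic cohesin subunit, and Hormad1, which marks unsynapsed axes, had log2 differences of 0.83 ± 0.17 (adjusted p = 0.00621) and 1.06 ± 0.25 (adjusted p = 0.0111). The XX and XY values of Hormad1 overlapped. Sycp2 did not pass the test, with 16.4 ± 14.7 RPKM in XX and 8.42 ± 3.61 RPKM in XY germ cells (SD, n = 4 each; limma adjusted p = 0.438) and a highest value of 36.7 RPKM in XX Het2 replicate 1. Trip13, an ATPase that removes Hormad proteins and also serves the spindle checkpoint of dividing cells, was the 1 member that was lower, at -0.49 ± 0.13 (adjusted p = 0.0196). Its call was lost without XX Het1 replicate 2 and without XY Het2 replicate 1, with log2 differences between -0.55 and -0.42 over the 8 fits.

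Among recombination genes 8 of 26 were called higher and 0 lower, with a median of 0.77. Dmc1, the meiotic strand-exchange recombinase, had 24.8, 52.1, 91.0 and 29.6 RPKM in XX and 7.21, 9.45, 8.81 and 11.3 RPKM in XY germ cells (log2 difference 2.13 ± 0.34, adjusted p = 0.00174). Some break and repair genes were low in most libraries and high in 1. Prdm9, which places the breaks, had 1.89, 5.16, 33.1 and 1.15 RPKM in XX and 0.39, 0.76, 0.36 and 0.42 RPKM in XY germ cells (2.03 ± 0.68, adjusted p = 0.0474). Meiob, which binds single-stranded DNA at breaks, had 1.76, 3.91, 18.9 and 1.12 RPKM in XX and at most 0.19 RPKM in XY germ cells (2.15 ± 0.56, adjusted p = 0.0168). XX Het2 replicate 1 was the highest library for both, and without it the log2 difference was 1.19 for Prdm9 (adjusted p = 0.0252) and 1.48 for Meiob (adjusted p = 0.00512). The Prdm9 call was lost without XX Het1 replicate 2 and without any 1 of the 4 XY libraries. Spo11, which cuts the DNA, had 4.52, 11.2, 9.34 and 6.74 RPKM in XX and 3.22, 4.53, 5.07 and 4.16 RPKM in XY germ cells and did not pass (0.72 ± 0.25, adjusted p = 0.0507), nor did Mei1, needed for breaks, at 1.52 ± 0.60 (adjusted p = 0.0795). Spo11 passed without XX Het1 replicate 1, and Mei1 passed without XX Het2 replicate 1 and without XX Het2 replicate 2. The count of 8 was 4 without XX Het1 replicate 2 and without XY Het2 replicate 1, 5 without XY Het1 replicate 2, and 10 without both libraries that stood apart.

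**Figure D3:**
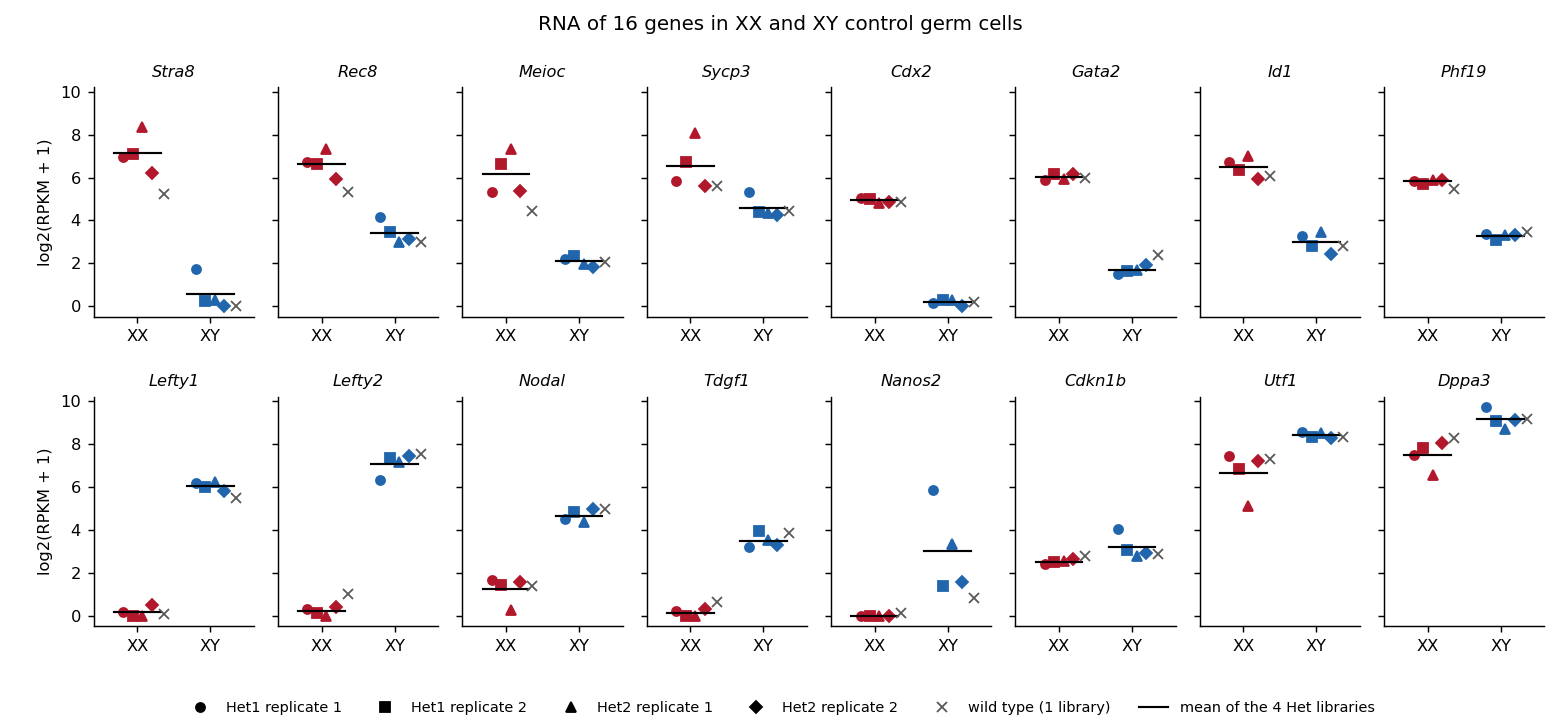
RNA of 16 genes as log2(RPKM + 1) in the 4 XX (left) and 4 XY (right) Het libraries; symbols mark the library, bars the mean of 4, and crosses the single wild-type library per sex. Cdx2, Gata2 and Phf19 lie tightly in both sexes, Stra8, Meioc and Sycp3 are highest in XX Het2 replicate 1, and Nanos2 is high in XY Het1 replicate 1 with 57.6 RPKM.

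Promoter windows of meiotic genes were searched for short motifs, since several axis genes moved together. The windows run from 250 bases before to 50 bases after the start of each RefSeq gene (GRCm38.p6). The 4 motifs, searched on both strands, were the E-box CACGTG, the motif CNCCTCAG described for STRA8-bound promoters, an E2F-type site GCGGGAA, and a direct repeat of AGGTCA, as bound by retinoic acid receptors, with 5 bases between. Among 19 windows of the 16 axis and synapsis genes, 36.8% held an E-box, 26.3% the STRA8 motif and 36.8% the E2F-type site, against 7.15%, 7.94% and 4.60% of all 32851 windows. The 23 windows matched for recombination genes gave 8.70%, 13.0% and 39.1%, the 13 windows matched for meiotic entry genes 15.4%, 23.1% and 30.8%, and the 20 windows matched for BMP response genes 5%, 5% and 0%. The direct repeat was found in 3 windows of all and in none of these lists. Base composition differed too: the axis windows averaged 60.8% GC and 21.5 CpG, against 53.8% and 12.4 in all windows, and its part in these shares was not tested. Windows of autosomal genes called higher in XX, at 63.1% GC, gave 8.31%, 11.6% and 8.94%, and those called lower, at 60.3% GC, gave 13.9%, 6.98% and 9.38%.

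The 6 windows printed here run 5′ to 3′ along the gene, with every match in capitals, and were chosen because they carry the leading entry gene and axis genes with 2 or 3 matches. They lie at chr6:34920698-34920997 (plus strand) for Stra8, chr10:88459337-88459636 (plus) for Sycp3, chr3:95559427-95559726 (plus) for Hormad1, the first of 2 windows listed for that gene, chr3:102936051-102936350 (minus) for Sycp1, chr5:138280259-138280558 (plus) for Stag3 and chr9:50561219-50561518 (minus) for Tex12.
Stra8: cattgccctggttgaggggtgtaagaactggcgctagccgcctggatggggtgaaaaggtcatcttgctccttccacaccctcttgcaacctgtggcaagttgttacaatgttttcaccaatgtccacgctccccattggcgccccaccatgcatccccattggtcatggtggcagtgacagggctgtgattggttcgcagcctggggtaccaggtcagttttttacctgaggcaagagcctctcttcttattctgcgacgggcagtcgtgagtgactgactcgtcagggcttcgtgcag
Sycp3: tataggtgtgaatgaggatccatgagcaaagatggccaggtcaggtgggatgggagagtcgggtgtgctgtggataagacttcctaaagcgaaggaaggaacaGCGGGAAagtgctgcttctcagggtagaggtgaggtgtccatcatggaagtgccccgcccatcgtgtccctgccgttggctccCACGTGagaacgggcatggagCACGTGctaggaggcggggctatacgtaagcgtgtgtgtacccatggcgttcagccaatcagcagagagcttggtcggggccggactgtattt
Hormad1: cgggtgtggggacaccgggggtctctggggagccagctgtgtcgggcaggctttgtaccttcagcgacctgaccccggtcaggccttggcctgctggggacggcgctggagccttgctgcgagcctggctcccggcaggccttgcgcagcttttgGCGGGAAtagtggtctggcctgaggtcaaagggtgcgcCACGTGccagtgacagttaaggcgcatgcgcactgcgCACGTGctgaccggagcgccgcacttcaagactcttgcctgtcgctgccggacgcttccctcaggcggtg
Sycp1: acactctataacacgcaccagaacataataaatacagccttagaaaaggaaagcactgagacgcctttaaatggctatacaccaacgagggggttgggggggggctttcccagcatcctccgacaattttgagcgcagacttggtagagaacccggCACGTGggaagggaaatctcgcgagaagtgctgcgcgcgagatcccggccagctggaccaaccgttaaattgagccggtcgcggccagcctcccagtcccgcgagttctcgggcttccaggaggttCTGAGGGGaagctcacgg
Stag3: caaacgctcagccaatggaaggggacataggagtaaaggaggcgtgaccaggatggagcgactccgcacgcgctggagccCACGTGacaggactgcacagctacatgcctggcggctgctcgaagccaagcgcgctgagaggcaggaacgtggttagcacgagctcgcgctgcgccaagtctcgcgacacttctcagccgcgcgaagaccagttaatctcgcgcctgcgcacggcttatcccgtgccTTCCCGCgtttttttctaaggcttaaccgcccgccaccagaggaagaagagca
Tex12: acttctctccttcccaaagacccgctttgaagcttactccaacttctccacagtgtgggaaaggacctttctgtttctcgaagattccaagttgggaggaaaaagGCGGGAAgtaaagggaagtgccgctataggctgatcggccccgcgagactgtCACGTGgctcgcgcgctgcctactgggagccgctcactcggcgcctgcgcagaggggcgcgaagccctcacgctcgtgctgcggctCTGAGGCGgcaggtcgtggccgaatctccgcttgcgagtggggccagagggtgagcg
The Stra8 window held none of the 4 motifs. Sycp3 held E-boxes that begin 64 and 43 bases before the start and an E2F-type site 147 bases before it, and Hormad1 held E-boxes at 57 and 20 bases and an E2F-type site at 95 bases. Tex12, a central element gene of the synaptonemal complex printed because its window held 3 of the motifs, had its E-box 93 bases, its E2F-type site 145 bases and its STRA8 motif 7 bases before the start. Its RNA did not pass the test, with 34.7, 69.1, 182 and 31.0 RPKM in XX and 42.7, 28.6, 18.5 and 25.8 RPKM in XY germ cells (log2 difference 1.11, adjusted p = 0.103). Sycp1 and Stag3, both higher in XX, held 1 E-box each, 94 and 170 bases before the start.

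Of 20 genes of the BMP response list 11 were called higher in XX, 2 were called lower and 7 did not pass, with a median of 0.74, and 13 were higher without both libraries that stood apart. Cdx2, a homeobox gene, had 32.6, 31.4, 26.7 and 27.9 RPKM in XX and 0.10, 0.24, 0.22 and 0 RPKM in XY germ cells (log2 difference 4.75 ± 0.16, adjusted p = 2.85e-08). Gata2, a zinc finger transcription factor, had 58.5, 70.0, 60.6 and 71.3 RPKM in XX and 1.82, 2.11, 2.26 and 2.80 RPKM in XY germ cells (4.35 ± 0.15, adjusted p = 2.85e-08). In both genes the libraries of a sex lay close together, and XX Het2 replicate 1 did not stand out. The homeobox genes Msx1 and Msx2, which promote meiotic entry in the mouse ovary, had log2 differences of 3.87 ± 0.33 (adjusted p = 3.27e-05) and 3.96 ± 0.16 (adjusted p = 1.61e-07). Id1, an inhibitor of basic helix-loop-helix factors and a direct BMP target, had 106, 80.1, 126 and 60.1 RPKM in XX and 8.52, 5.91, 10.1 and 4.40 RPKM in XY germ cells (3.52 ± 0.27, adjusted p = 1.49e-05). Zglp1, the GATA-like factor that drives oogenic fate downstream of BMP in the mouse, had 23.9, 20.7, 18.1 and 23.9 RPKM in XX and 16.9, 8.41, 10.01 and 9.63 RPKM in XY germ cells, a smaller step that also passed (0.93 ± 0.20, adjusted p = 0.0078). The 2 lower genes were Hey1, a Notch and BMP target, at -1.65 ± 0.39 (adjusted p = 0.0106), and the BMP signal transducer Smad1, at -0.66 ± 0.17 (adjusted p = 0.0152).

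Retinoic acid genes were called in both directions. Of 15 tested, 6 were called higher and 2 lower in XX, with a median of 0.51. The lower count lay near the 12.8% over all genes tested, and the higher count lay above the 15.4%. The receptor gene Rarb, itself induced by retinoic acid, had 6.06, 5.13, 7.62 and 4.05 RPKM in XX and 0.55, 2.01, 1.54 and 1.10 RPKM in XY germ cells (1.56 ± 0.25, adjusted p = 0.0017). The binding proteins Crabp1 and Crabp2 were higher by 1.87 ± 0.19 (adjusted p = 0.000123) and 1.47 ± 0.21 (adjusted p = 0.000949). The receptor gene Rara was lower, at -0.63 ± 0.13 (adjusted p = 0.007), as was Aldh1a2, which makes retinoic acid, at -1.07 ± 0.25 (adjusted p = 0.0102). Aldh1a2 had 77.5 RPKM in the SSEA1-negative gonadal cells, against 5.59 ± 2.55 RPKM in XX and 12.1 ± 1.27 RPKM in XY germ cells (SD, n = 4 each). Cyp26b1, the degrading enzyme of the testis soma, stayed below 2 RPKM in all 8 libraries and did not pass (adjusted p = 0.561). Of 14 Wnt response genes tested 4 were called higher and 0 lower. Axin2, a feedback inhibitor and general Wnt target, had 37.2, 38.1, 35.3 and 39.4 RPKM in XX and 12.7, 15.1, 12.1 and 14.3 RPKM in XY germ cells (1.41 ± 0.12, adjusted p = 4.44e-05), and the secreted Wnt deacylase Notum was higher by 1.42 ± 0.30 (adjusted p = 0.00628).

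Of 20 listed genes of the later oocyte, 10 reached the filter of 1 RPKM in 2 libraries, and of these 1 was called higher and 3 lower in XX. Sohlh2, an oocyte and spermatogonial transcription factor, was the higher one at 0.46 ± 0.14 (adjusted p = 0.0366), with its call lost without any 1 of 5 libraries: XX Het1 replicate 2, XX Het2 replicate 1, XY Het1 replicate 1, XY Het2 replicate 1 or XY Het2 replicate 2. The log2 difference was between 0.37 and 0.52 over the 8 fits. Figla, which starts zona pellucida gene expression, had 1.85, 1.98, 15.1 and 0.90 RPKM in XX and 0.92, 0.14, 0.44 and 0.55 RPKM in XY germ cells, high in XX Het2 replicate 1 alone, and did not pass (adjusted p = 0.0715), while it passed without that library and without XX Het2 replicate 2. Ooep, a maternal-effect gene of the egg cortex, went the other way, with 3.14, 2.50, 0.60 and 2.83 RPKM in XX and 21.2, 16.2, 10.1 and 11.6 RPKM in XY germ cells (-2.31 ± 0.32, adjusted p = 0.000846).

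The genes with the largest autosomal differences in XX that belong to none of these groups were chosen by a rule of size. Phlda2, an imprinted gene that limits placental growth, had 245, 235, 80.1 and 244 RPKM in XX and 3.04, 0.86, 1.55 and 1.65 RPKM in XY germ cells (6.11 ± 0.36, adjusted p = 2.13e-06). It was lowest in XX Het2 replicate 1, the library with the highest meiotic genes. Sct, which encodes the hormone secretin, was higher by 4.30 ± 0.26 (adjusted p = 3.39e-06), the homeobox gene Dlx3 by 3.74 ± 0.34 (adjusted p = 5.78e-05) and the autophagy receptor gene Calcoco2 by 3.49 ± 0.45 (adjusted p = 0.00059).

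Genes of the Nodal pathway differed in both directions, and its inhibitors and coreceptor were at or near 0 in XX germ cells. Of 15 genes tested in the Nodal and activin list, 6 were called lower and 3 higher in XX. Lefty2 had 0.25, 0.10, 0 and 0.32 RPKM in XX and 79.4, 162, 142 and 174 RPKM in XY germ cells (log2 difference -6.86 ± 0.24, adjusted p = 2.85e-08). Lefty1 had 0.13, 0, 0 and 0.43 RPKM in XX and 73.0, 62.7, 73.2 and 55.6 RPKM in XY germ cells (-5.89 ± 0.18, adjusted p = 1.55e-08). Both inhibitors were thus near 0 in every XX library and above 55 RPKM in every XY library. Nodal, the ligand, had 2.14, 1.70, 0.20 and 1.94 RPKM in XX and 21.7, 27.5, 19.7 and 30.1 RPKM in XY germ cells (-3.44 ± 0.29, adjusted p = 3.76e-05), and its coreceptor Tdgf1 had at most 0.26 RPKM in XX and 8.12, 14.6, 10.6 and 8.97 RPKM in XY germ cells (-3.36 ± 0.21, adjusted p = 3.45e-06). The fold change of such genes on the log2(RPKM + 1) scale understates the ratio of their RPKM. Receptors and transducers did not share this pattern. Acvr2a, a type II receptor, was higher in XX by 0.53 ± 0.14 (adjusted p = 0.0163), a call lost without XX Het1 replicate 2 and without XY Het2 replicate 1 (0.46 to 0.60 over the 8 fits), and the convertase genes Pcsk6 and Furin, whose products cleave Nodal precursor, were higher by 1.33 ± 0.19 (adjusted p = 0.000951) and 0.82 ± 0.16 (adjusted p = 0.00482).

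Other developmental regulators accompanied them. Otx2, a homeobox factor of the epiblast and forebrain, had at most 0.17 RPKM in XX and 10.9, 10.7, 11.3 and 9.51 RPKM in XY germ cells (-3.44 ± 0.16, adjusted p = 6.04e-07). Hesx1, a homeobox repressor, had at most 0.24 RPKM in XX and 43.9, 17.6, 18.2 and 17.3 RPKM in XY germ cells (-4.43 ± 0.28, adjusted p = 4.15e-06), highest in XY Het1 replicate 1. Wnt3, the ligand that patterns the epiblast, had 2.12, 1.02, 1.38 and 1.18 RPKM in XX and 31.2, 22.2, 24.0 and 20.2 RPKM in XY germ cells (-3.39 ± 0.20, adjusted p = 2.02e-06). Pmaip1, which encodes the pro-apoptotic protein Noxa, had 0.96, 0.26, 0.96 and 0.37 RPKM in XX and 154, 43.6, 72.5 and 53.5 RPKM in XY germ cells (-5.50 ± 0.34, adjusted p = 3.45e-06). The muscle LIM protein gene Pdlim3 was lower, at -3.35 ± 0.24 (adjusted p = 8.79e-06).

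Of 12 FGF response genes tested, 4 were called lower in XX, 1 higher and 7 did not pass, with a median of -0.74. Etv5, an ETS factor induced by FGF, had 67.2, 40.8, 25.1 and 61.5 RPKM in XX and 96.5, 110, 101 and 117 RPKM in XY germ cells (-1.20 ± 0.26, adjusted p = 0.00736). The ligand gene Fgf8 and the feedback inhibitor gene Il17rd were lower, at -1.20 ± 0.25 (adjusted p = 0.00621) and -0.98 ± 0.18 (adjusted p = 0.00387). Fgfr3, a receptor gene, had 18.7, 17.0, 17.5 and 18.1 RPKM in XX and 1.28, 1.57, 1.92 and 1.66 RPKM in XY germ cells, with libraries of a sex close together (2.86 ± 0.15, adjusted p = 9.21e-07).

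Of 18 tested genes of male fate and the piRNA pathway, 3 were called lower in XX and 0 higher. Over all genes tested 12.8% were lower and 15.4% higher. The counts of this list moved with single libraries. The count of lower genes was 1 without XX Het1 replicate 2, without XX Het2 replicate 1, without XY Het1 replicate 1 and without XY Het2 replicate 1, and 0 with no filter on low values. Without XY Het1 replicate 1, 2 genes were called higher in XX, the piRNA factor gene Gtsf1 at 1.22 (adjusted p = 0.0457) and Mael, also of the piRNA pathway, at 1.08 (adjusted p = 0.0165). Without both libraries that stood apart the same 2 were called higher and 2 genes lower. Nanos2, the RNA-binding protein that represses meiosis in the testis, was listed at 0 in all 4 XX libraries and had 57.6, 1.59, 9.05 and 1.96 RPKM in XY germ cells (adjusted p = 0.0168; 0.00969 without both libraries that stood apart). The XY values spanned a wide range, and XY Het1 replicate 1 was far above the rest. Nanos3, which protects migrating germ cells, had 9.19, 5.06, 2.19 and 7.22 RPKM in XX and 35.8, 12.6, 11.9 and 10 RPKM in XY germ cells (-1.36 ± 0.42, adjusted p = 0.0336). Its call was lost without XX Het1 replicate 2, without XX Het2 replicate 1, without XY Het1 replicate 1 and without XY Het2 replicate 1, with log2 differences between -1.59 and -0.97 over the 8 fits and -0.64 without both libraries that stood apart. The piRNA factor gene Tdrd12 was lower, at -0.74 ± 0.25 (adjusted p = 0.0469), at -0.48 without XY Het1 replicate 1, and its call was lost without any library but XX Het1 replicate 1 and XY Het1 replicate 2. Dnmt3l, the cofactor of de novo DNA methylation, did not reach the filter, with 0 RPKM in all XX libraries and 1.23, 0, 0.06 and 0 RPKM in XY germ cells. The piRNA genes Piwil4 and Tdrd9 were high in XY Het1 replicate 1 and did not pass (adjusted p = 0.725 and 0.54). The log2 difference of Piwil4 was -0.20 and turned to 0.25 without that library.

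Of 27 tested genes of mitotic arrest and G1 control, 4 were called higher and 3 lower in XX, with a median of -0.04. Both counts lay near the shares over all genes tested, 15.4% higher and 12.8% lower. The higher genes were 2 without XX Het2 replicate 1, without XY Het2 replicate 2 and with no filter on low values. Without both libraries that stood apart 6 were lower, with Cdkn2a, a CDK inhibitor locus, and the repressor genes E2f4 and E2f8 added at -0.48, -0.42 and -0.75 (adjusted p = 0.0333, 0.0375 and 0.0156). The CDK inhibitor gene Cdkn1b (p27), known for its role in the arrest of XY germ cells, had 4.29, 4.66, 4.85 and 5.16 RPKM in XX and 15.4, 7.34, 5.93 and 6.70 RPKM in XY germ cells. All XX values were below all XY values, and the test was not passed (-0.69 ± 0.25, adjusted p = 0.0635). Cdkn1a (p21) and Cdkn2b (p15) overlapped between the sexes (adjusted p = 0.335 and 0.418). Cdkn1c (p57) was higher in XX by 0.70 ± 0.21 (adjusted p = 0.0317), overlapped, and lost its call without any library but XX Het2 replicate 2 and XY Het1 replicate 1 (0.57 to 0.85). Ccnd1, the cyclin D1 gene that drives G1 exit, had 84.5, 75.9, 100 and 47.4 RPKM in XX and 14.5, 30.6, 29.4 and 26.9 RPKM in XY germ cells (1.57 ± 0.27, adjusted p = 0.00242). Its kinase partners went the other way. Cdk6 had 6.47, 3.80, 4.56 and 6.18 RPKM in XX and 29.3, 14.5, 15.8 and 13.0 RPKM in XY germ cells (-1.57 ± 0.25, adjusted p = 0.00182), and Cdk4 was lower, at -0.96 ± 0.21 (adjusted p = 0.00799). E2f2, an activator of S phase genes, was higher by 1.06 ± 0.19 (adjusted p = 0.00296). Ccne1 (cyclin E1) had 41.4, 35.8, 29.8 and 33.2 RPKM in XX and 10.6, 26.2, 26.1 and 24.4 RPKM in XY germ cells (0.73 ± 0.26, adjusted p = 0.0558), and passed without XY Het1 replicate 1, its lowest library, at 0.43 (adjusted p = 0.0461).

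Proliferation genes that passed were all higher in XY germ cells, the sex that arrests. Of 30 tested, 8 were called lower in XX and 0 higher, with a median of -0.14. Bub1b, a spindle checkpoint kinase, had 61.8, 43.0, 43.2 and 55.4 RPKM in XX and 80.0, 78.8, 104 and 78.9 RPKM in XY germ cells (-0.75 ± 0.16, adjusted p = 0.00652). Aurkb, a mitotic kinase, was lower, at -1.08 ± 0.26 (adjusted p = 0.0127). The replication helicase gene Mcm2 was lower, at -0.71 ± 0.19 (adjusted p = 0.0204), a call lost without XX Het1 replicate 2 and without XY Het2 replicate 1 (-0.85 to -0.59). Mki67, the common marker of cycling cells, had 89.1, 125, 77.2 and 154 RPKM in XX and 61.3, 172, 108 and 167 RPKM in XY germ cells, with wide overlap (adjusted p = 0.786), and Ccnb1 (cyclin B1) did not pass (-0.74 ± 0.27, adjusted p = 0.0608), though it did without XX Het2 replicate 2. The count of 8 was 5 without XX Het1 replicate 2, 4 without XY Het2 replicate 1, and 10 without both libraries that stood apart. Without both libraries 1 gene was higher, Rrm2, of ribonucleotide reductase, at 0.54 (adjusted p = 0.0292). Quantile normalization gave 4 lower genes, and 2 passed with no filter on low values.

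Part of the pluripotency programme that germ cells share with the early embryo was lower in XX. Of 22 tested genes, 7 were called lower and 1 higher, with a median of -0.59. With no filter on low values 3 were lower and 0 higher. The higher genes were 3 without XX Het2 replicate 1, 3 without XY Het1 replicate 1 and 4 without both, where Lin28a, an RNA-binding protein gene, and the transcription factor genes Tfap2c and Tfcp2l1 were added at 0.87, 1.12 and 0.78 (adjusted p = 0.0014, 0.00128 and 0.00658). Utf1, a chromatin-bound factor of pluripotent cells, had 173, 114, 33.6 and 148 RPKM in XX and 372, 317, 372 and 316 RPKM in XY germ cells (-1.77 ± 0.41, adjusted p = 0.00995). Dppa3 (Stella) had 177, 226, 94.7 and 265 RPKM in XX and 843, 541, 420 and 562 RPKM in XY germ cells (-1.68 ± 0.31, adjusted p = 0.00339). In both, XX Het2 replicate 1 was the lowest library, and the differences were -1.22 and -1.19 without both libraries that stood apart (adjusted p = 0.00113 and 0.00184). Tcl1, a coactivator of the kinase Akt, was lower, at -1.65 ± 0.39 (adjusted p = 0.0112; -1.08 without both libraries, adjusted p = 0.021). Pou5f1 (Oct4) was lower, at -1.09 ± 0.34 (adjusted p = 0.0347), with overlap, and its call was lost without XX Het1 replicate 2, without XX Het2 replicate 1, without XY Het1 replicate 1 and without XY Het2 replicate 1 (-1.36 to -0.80 over the 8 fits; -0.58 without both libraries that stood apart, adjusted p = 0.107). Nanog had 37.8, 25.5, 5.87 and 42.9 RPKM in XX and 40.9, 65.9, 49.2 and 65.3 RPKM in XY germ cells and did not pass (adjusted p = 0.0796; passed without XX Het2 replicate 2). Sox2 stood at -0.08 ± 0.22 (adjusted p = 0.814). Alpl, the alkaline phosphatase of germ cells, was the higher gene, with 42.2, 32.0, 47.8 and 79.9 RPKM in XX and 17.96, 10.5, 30.9 and 23.5 RPKM in XY germ cells (1.26 ± 0.33, adjusted p = 0.0161).

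Of 27 Polycomb genes, 6 were called higher and 3 lower in XX, beside 15.4% and 12.8% of all genes tested. Phf19, an accessory subunit that brings the complex PRC2 to chromatin, had 56.7, 50.7, 58.6 and 58.3 RPKM in XX and 9.28, 7.39, 8.95 and 8.98 RPKM in XY germ cells (2.57 ± 0.13, adjusted p = 7.02e-07). The other accessory subunit gene Mtf2 was lower, with 61.7, 60.2, 38.1 and 64.5 RPKM in XX and 88.1, 80.7, 83.0 and 87.2 RPKM in XY germ cells (-0.61 ± 0.17, adjusted p = 0.0194). Pcgf5, of the complex PRC1, was higher by 1.26 ± 0.12 (adjusted p = 8.56e-05), and Ezh2, the catalytic subunit gene of PRC2, stood at 0.16 (adjusted p = 0.421).

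Summed markers of other gonadal cells were lower in the germ cell libraries than in the SSEA1-negative cells for every list but the endothelial one, and some markers moved with sex. The SSEA1-negative cells came from males alone, so XX libraries and pregranulosa genes have no ovarian soma beside them. Fewer cells of a type and less RNA per cell cannot be told apart in these bulk samples. Of 9 Sertoli genes tested, 4 were called lower in XX and 0 higher, among them Amh, the anti-Müllerian hormone, with 0.15, 0.49, 0 and 0.21 RPKM in XX and 25.1, 4.55, 1.26 and 11.9 RPKM in XY germ cells (adjusted p = 0.00732), against 263 RPKM in the SSEA1-negative cells. The count of 4 was 2 without both libraries that stood apart, 1 with the filter at 4 libraries and 0 with no filter. The summed level of the 10 Sertoli genes was 85.4 to 118 RPKM in XX libraries, 111 to 172 RPKM in XY libraries and 689 RPKM in the SSEA1-negative cells. Dmrt1, a member that germ cells also transcribe, gave 53.7 to 66.4 RPKM of this in XX and 65.8 to 95.9 RPKM in XY libraries. Lefty1, Lefty2, Nodal and Tdgf1 had at most 2.13 RPKM in the SSEA1-negative cells. Of 7 pregranulosa genes tested, 2 were called higher and 1 lower; their summed level was 15.1 to 34.5 RPKM in XX libraries and 18.3 to 24.7 RPKM in XY libraries, and Foxl2, the defining marker, stayed at or below 0.67 RPKM in all 8. The sums of 8 Leydig, 9 stromal and 8 macrophage genes reached at most 31.1, 67.2 and 9.89 RPKM in any germ cell library, against 883, 1923 and 38.0 RPKM in the SSEA1-negative cells. Of 4 Leydig genes tested 2 were called higher in XX, Insl3, a Leydig cell hormone, at 1.08 ± 0.32 (adjusted p = 0.0308) and Scarb1, a lipoprotein receptor gene, at 0.54 ± 0.17 (adjusted p = 0.0365). Neither was called without XX Het1 replicate 1, without XX Het2 replicate 2, without XY Het1 replicate 1 or without XY Het1 replicate 2. Of 9 stromal genes tested, Ptch1, a Hedgehog receptor gene, was called lower at -0.53 ± 0.17 (adjusted p = 0.042), a call lost in each of the 8 fits without 1 library. The 8 endothelial genes summed to 19.2 to 69 RPKM in XX libraries, 30.7 to 45.6 RPKM in XY libraries and 44.9 RPKM in the SSEA1-negative cells, and 0 of 2 tested were called. The erythroid sum was 261 RPKM in XX Het2 replicate 1 and at most 17.7 RPKM in the other libraries, with 179 RPKM from the globin gene Hbb-b1, singled out after its value was seen. Of 10 genes of the response to tissue dissociation, the immediate early gene Fos was higher in XX and the heat shock gene Hspa1b was lower, at -1.28 ± 0.21 (adjusted p = 0.00189). Fos had 60.1, 19.6, 16.5 and 20.2 RPKM in XX and 3.88, 6.76, 18.1 and 5.06 RPKM in XY germ cells (1.68 ± 0.46, adjusted p = 0.0206), and its call was lost without XY Het1 replicate 1 and without XY Het2 replicate 2 (1.27 to 2.09). The part of other cells and of dissociation in the results was not tested.

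The wild-type pair, 1 library per sex that the fit did not use, went the same way for most genes called. Of the autosomal genes called higher in XX, 1692 of 1786 (94.7%) were also higher in the XX wild-type library, and of those called lower 1569 of 1629 (96.3%) were lower, while 51.3% of all genes tested were higher there. Differences in the wild-type pair were smaller, with a median log2 difference of 0.58 against 0.86 in the Het libraries for autosomal genes called higher and of -0.52 against -0.78 for those called lower. A choice of genes by their difference in the Het libraries favours larger values there. Stra8 had 36.7 RPKM in the wild-type XX and 0 RPKM in the wild-type XY library, and Rec8 had 38.7 and 6.94 RPKM. Both XX values lay below those of all 4 XX Het libraries, as did Meioc at 20.9 RPKM. Cdx2, at 28.2 and 0.13 RPKM, Gata2, at 62.1 and 4.30 RPKM, and Lefty1, at 0.04 and 43.4 RPKM, were on the same sides. Nanos2 had 0.10 and 0.79 RPKM. Of 94 named genes called, 90 went the same way in the wild-type pair and 4 did not. Prdm9 had 0.65 RPKM in the wild-type XX and 1.03 RPKM in the wild-type XY library, Nanos3 had 7.94 and 7.24 RPKM, Sohlh2 had 97.03 and 100.4 RPKM, and Wnt4, which encodes a Wnt ligand, had 0.87 and 1.25 RPKM. With 1 library per sex these are values without a test.

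**Figure D4:**
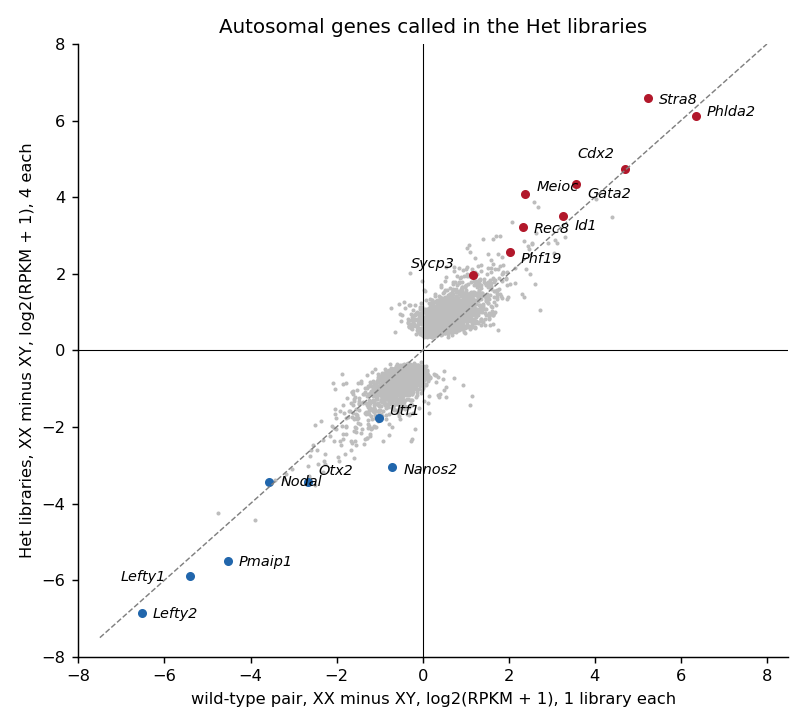
Difference between XX and XY germ cells in the wild-type pair (x axis, 1 library per sex) and in the Het libraries (y axis, 4 per sex), both on the log2(RPKM + 1) scale, for autosomal genes called in the Het libraries; the dashed line marks equality and named genes are coloured. Of 1786 genes above the axis 1692 lie to the right of 0, and of 1629 below it 1569 lie to the left, with Nanos2 closer to 0 in the wild-type pair than in the Het libraries.

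The gene lists above were not filtered by chromosome. The meiotic entry, recombination and erythroid lists each held 1 X-linked gene among those tested. X-linked genes as a class are given here. Of 490 X-linked genes tested, 39.0% were called higher and 2.45% lower in XX, with a median log2 difference of 0.49, against 14.6% higher and 13.3% lower and a median of 0.03 for 12257 autosomal genes.

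Promoter histone marks were measured in 1 Setdb1 flox/- ChIP library per sex and mark, as RPKM within 1 kb to either side of the start, and no test was possible. H3K27me3, the Polycomb mark, reached 1 RPKM in either sex at 2796 of 22138 promoters, and their median log2 ratio of XX over XY was -0.27. Of these, 28 (1.00%) had 2-fold more and 11 (0.393%) had 2-fold less H3K27me3 in XX. Among autosomal genes of the RNA comparison, 14.1% of those called higher in XX, 5.34% of those called lower and 8.44% of all reached the minimum. Of 1034 such autosomal genes, 9 (0.870%) had 2-fold less and 3 (0.290%) had 2-fold more H3K27me3 in XX. Of 252 called higher, 6 had 2-fold less and 0 had 2-fold more, while of 87 called lower 1 had 2-fold less and 3 had 2-fold more.

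The 3 genes with lower RNA and more H3K27me3 in XX were Lefty1, Lefty2 and Tmem63a, a membrane protein gene named after its value was seen. All 3 lie on chromosome 1. The distance between them was not measured, so they may not count as 3 separate loci. Lefty1 had 1.09 RPKM of H3K27me3 in XX and 0.272 in XY, Lefty2 had 1.03 and 0.459, and Tmem63a had 1.54 and 0.456. The H3K9me3 libraries moved the same way at these promoters below the minimum of 1 RPKM, with 0.530 in XX and 0.076 in XY at Lefty1, and what the marks share at these promoters was not tested. Nodal (0.541 in XX and 0.308 in XY) and Tdgf1 (0.801 and 0.439) did not reach the minimum, and Otx2, near 0 in XX RNA, had slightly less H3K27me3 in XX, at 1.49 against 1.78. Among genes higher in XX, Id1 had 0.272 RPKM in XX and 1.41 in XY, a ratio of 0.246 after a pseudocount of 0.1, and Phlda2 had 0.594 and 1.79. The other 4 genes past 2-fold, Slc38a4, Fgf11, Pwwp2b and 2510009E07Rik, were named after their values were seen. Stra8 had 0.570 RPKM in XX and 1.15 in XY, a ratio of 0.535, short of the rule. Cdx2 kept H3K27me3 in both sexes, with 1.47 RPKM in XX and 2.04 in XY, and had 0.374 and 1.30 RPKM of H3K9me3. H3K9me3 reached 1 RPKM at only 387 promoters, of which 28 (7.24%) had 2-fold more and 5 (1.29%) had 2-fold less in XX. Of 61 such promoters at autosomal genes of the RNA comparison, 0 had 2-fold more and 2 (3.28%) had 2-fold less. None of the 28 thus lay at an autosomal gene of the RNA comparison.

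**Figure D5:**
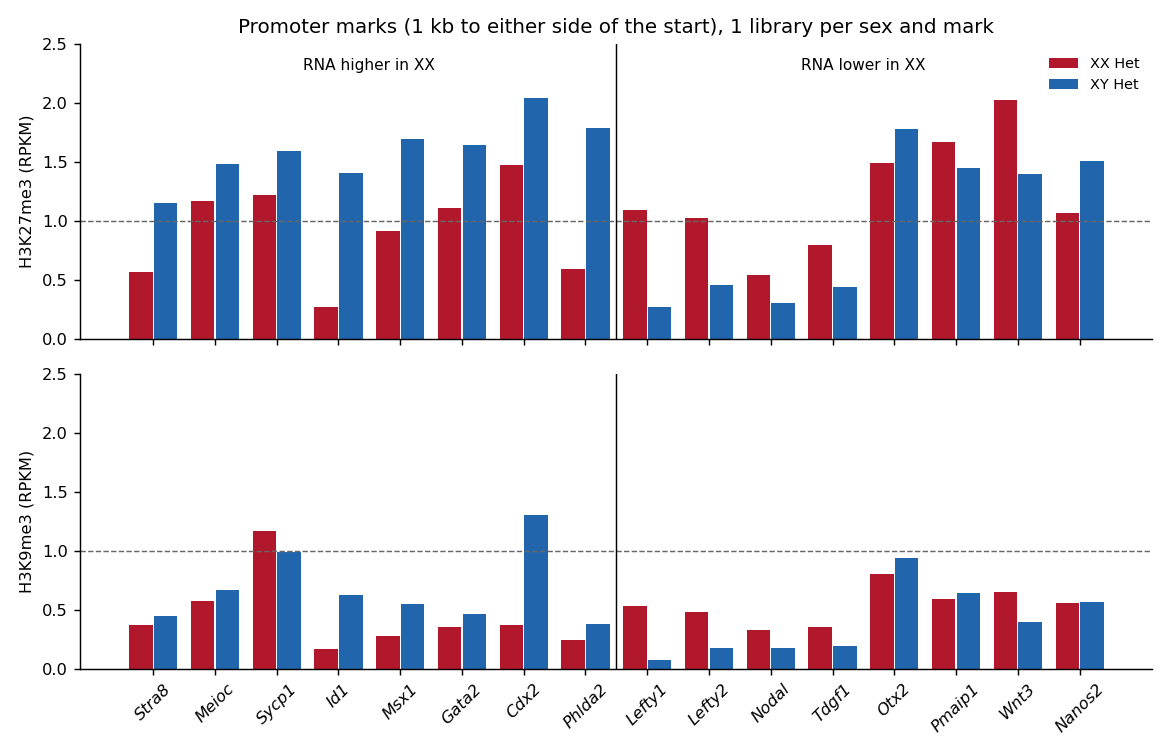
H3K27me3 (top) and H3K9me3 (bottom) at 16 promoters in RPKM, 1 library per sex and mark, with XX bars left of XY bars and the minimum of 1 RPKM dashed; genes with higher RNA in XX stand left of the vertical line. H3K27me3 is lower in XX at Id1 (0.272 against 1.41) and higher in XX at Lefty1 (1.09 against 0.272), with no replicates.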

How the data were processed

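RNA was measured in SSEA1-positive germ cells of E13.5 mouse gonads. The authors deposited RPKM values per Ensembl gene for RNA, and RPKM within 1 kb of either side of the start for ChIP. BWA, SAMtools and the mm9 build are named, without versions, per the submitters' processing notes; neither the read counter nor the total used for scaling is named there. Depth is unknown, so no counting interval is given.

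Of 22138 genes, 12987 with at least 1 RPKM in 2 of the 8 libraries were tested on log2(RPKM + 1) with limma 3.58.1 (R 4.3.3; 1 mean per sex, eBayes with trend, two-sided, Benjamini-Hochberg). The values are not counts, so no count model was used. The log scale understates the change of low genes. Code for the fit was tested on simulated data. The members and gene lists were chosen with earlier results of these data known, and list counts are descriptions. Lists overlap, so a gene can count in more than 1 of them. Named genes were a set of textbook genes, the 10 autosomal genes per direction with the largest differences among called genes without overlap and with a mean of 5 RPKM or more in the higher sex, and up to 3 called members per list and direction, 112 in all; genes outside these (Dazl, Ddx4, Ezh2, Dmrt1, Tex12, Foxl2, Gtsf1, Mael, Cdkn2a, E2f4, E2f8, Lin28a, Tfap2c, Tfcp2l1, Rrm2 and those so marked) were named after their values were seen. M1ap, Meiob and Meioc are listed under older names. Promoter marks were compared as ratios after adding 0.1 RPKM, where either sex had 1 RPKM, with a 2-fold rule. Sequences are from RefSeq (GRCm38.p6), and no coordinates of the deposited build were used with them. Alternatives changed the pseudocount, filter, scaling, model terms and libraries. Gene names matched the reference for 20551 identifiers. Results for some genes are not reported here.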

Additional observations from a re-analysis of the deposited data

Results flagged for a closer look

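In 23 of 198 groups of 4 libraries, each a named gene in 1 sex with a highest value of at least 1 RPKM, the highest or lowest library stood apart by Dixon's criterion, which chance meets in about 1 of 20 groups. Of the 23, 12 were in XY Het1 replicate 1 and 9 in XX Het2 replicate 1.

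XX Het2 replicate 1 was the highest XX library for M1ap (243.84 RPKM), Prdm9 (33.09 RPKM), Meiob (18.9 RPKM), Figla (15.06 RPKM), Mei1 (14.09 RPKM), Tdrd9 (8.78 RPKM) and Cdkn2d (6.67 RPKM), and the lowest for Phlda2 (80.14 RPKM) and Mtf2 (38.14 RPKM). In the same library the erythroid sum was 261 RPKM, and the part of red cell RNA in these values was not tested.

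XY Het1 replicate 1 was the highest XY library for Nanos2 (57.6 RPKM), Il17rd (45.62 RPKM), Ptch1 (44.52 RPKM), Hesx1 (43.89 RPKM), Sycp3 (38.72 RPKM), Nanos3 (35.78 RPKM), Cdkn1b (15.4 RPKM), Tdrd9 (7.88 RPKM), Piwil4 (7.65 RPKM), Stra8 (2.3 RPKM) and Dnmt3l (1.23 RPKM), and the lowest for Ccne1 (10.58 RPKM). Its Sertoli sum, 172 RPKM, was the highest of the XY libraries.

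Fos stood apart at 60.12 RPKM in XX Het1 replicate 1, the library with the highest sum of dissociation genes (347 RPKM), and Bub1b at 104.2 RPKM in XY Het2 replicate 1.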

How the results depend on the processing

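The 3655 calls (1998 higher, 1657 lower) ranged from 2347 to 3693 when 1 library was left out (1310 to 1893 higher, 1037 to 1808 lower), and no called gene changed sign in any setting. Het1 alone gave 271 calls (162 higher, 109 lower) and Het2 alone 314 (151 higher, 163 lower), with 4 libraries in place of 8. No filter gave 2620, and median centring 1696 higher and 2013 lower. Leaving out XX Het2 replicate 1 and XY Het1 replicate 1 together, chosen after seeing the data, gave 3518. The labels do not say whether replicate numbers pair the sexes. Deviations from the sex mean correlated between XX and XY at 0.294 (Het1) and 0.232 (Het2) for replicate 2. For replicate 1 they correlated at 0.007 (Het1) and -0.010 (Het2). A replicate block gave 4460 calls and kept 99.8% of the 3655. What the replicates share was not tested. The genotype interaction stayed at 0 of 12987, also when 1 library was left out, but 6 genes passed with no filter (487 at an unadjusted p under 0.05). Of 94 named genes called, 72 were called in each of 8 fits without 1 library.

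Signs turned only for genes not called. With quantile normalization these were Ccnd3 (0.0832), Mki67 (0.0664), Setdb1 (0.0804) and Sox2 (0.0632). With Het1 alone they were Ccnd3 (0.22), Mki67 (0.0384), Sox2 (0.064), Sycp2 (-0.0561) and Tdrd9 (-0.23), and with Het2 alone Cdkn2b (0.0524) and Piwil4 (0.26). Without both libraries Piwil4 stood at 0.19 and Sox2 at 0.13. Leaving out 1 library gave -0.18 to 0.11 for Ccnd3, -0.44 to 0.0497 for Mki67, -0.42 to 0.25 for Piwil4, -0.15 to 0.0574 for Setdb1 and -0.22 to 0.16 for Sox2. The cause was not tested.

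The median log2 H3K27me3 ratio of XX over XY was -0.42 at autosomal genes called higher and -0.12 at autosomal genes called lower. It was -0.34 at all autosomal genes tested, the set these come from. At all promoters, which include X-linked genes and genes not tested, it was -0.27. At genes called higher it was -0.32 with a pseudocount of 0.5, -0.58 at 2 RPKM and -0.15 after median centring. At genes called lower it was 0.0163 at 2 RPKM and 0.15 after centring. Centring set all promoters to 0 for both marks and gave 0.30 and 0.12 for H3K9me3 at genes called higher and lower, against 0.18 and 0.00; at 2 RPKM no such gene was left for H3K9me3. With 1 ChIP library per sex and mark, none of these ratios has a replicate error. Depth limits low genes in ways that RPKM alone cannot show.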

Other observations

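Of 12 DNA methylation genes tested, 1 was called higher and 1 lower in XX germ cells, beside 15.4% and 12.8% of all genes tested. Both encode dioxygenases that oxidise 5-methylcytosine. Tet1 had 29.3, 44.2, 18.3 and 57.9 RPKM in XX and 53.2, 98.0, 62.2 and 104 RPKM in XY germ cells (log2 difference -1.13 ± 0.33, limma adjusted p = 0.0274), with overlap. Tet2 had 7.49, 15.2, 5.84 and 13.9 RPKM in XX and 6.88, 4.03, 3.02 and 5.05 RPKM in XY germ cells (0.97 ± 0.31, adjusted p = 0.0369), also with overlap. The call of Tet1 was lost without 4 of the 8 libraries left out in turn and that of Tet2 without 5.

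In both sexes Het1 replicate 2 and Het2 replicate 2 had more Tet1 than Het1 replicate 1 and Het2 replicate 1, a split that the labels do not name as a batch.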
